A study of Mus musculus with 9 samples.

Results

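The cytochrome P450 genes of families 1 to 4, without the subfamilies Cyp2a, Cyp2b and Cyp4a, were followed across 9 arrays of mouse liver RNA, together with the xenobiotic receptor genes Nr1i2 (PXR) and Nr1i3 (CAR). Members were chosen by symbol, and a gene was kept when at least 3 of the 9 arrays detected a probe of it (a detection p-value under 0.05). This gave 40 genes, 38 P450 genes and 2 receptors, of the 10408 genes tested in all. They came from 60 symbols with 90 named probes. Por, the reductase that passes electrons to microsomal P450s, has no probe under that name in the annotation used here and was not analysed here.

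The livers were from male C57BL/6 mice aged 8 weeks, and each of 3 groups had 3 arrays. The first group was euthyroid, the second was made hyperthyroid with triiodothyronine (T3) for 3 days, and the third received T3 for 3 days and an siRNA against FOXO1 by hydrodynamic tail vein injection, a fast injection of a large volume that carries nucleic acid into liver cells. The labels name no group given a control siRNA, so the siRNA and the injection cannot be told apart. Nor do they tell if every array comes from its own mouse, and the p-values therefore measure only the spread between the arrays of a group, which may be technical.

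P450s are heme enzymes of the endoplasmic reticulum that add oxygen to their substrates. Members of families 1 to 3 oxidise drugs, pollutants and steroids, while many members of family 4 hydroxylate fatty acids and eicosanoids at the end of the chain. In hepatocytes the nuclear receptors PXR and CAR switch on many Cyp2b, Cyp2c and Cyp3a genes when foreign compounds or bile acids are present, and the aryl hydrocarbon receptor (AhR) does so for Cyp1 genes. FoxO1 is a forkhead factor that binds DNA in fasted liver and leaves the nucleus when insulin acts. Thyroid hormone acts in liver mainly through the thyroid hormone receptor beta, a nuclear receptor that pairs with the retinoid X receptor.

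Signals are given as normalized log2 values, so a difference of 1 is a 2-fold change, and values of different probes are not compared with each other. Between 36.4% and 40.5% of all probes were detected on an array, and the number of arrays limits the precision. Foxo1 itself, read by its brighter probe, stood at 8.77 ± 0.08 in the euthyroid, 9.54 ± 0.29 in the T3 and 8.47 ± 0.06 in the T3 plus siRNA group (SD, n = 3 each). The T3 group was 1.71-fold above the euthyroid group (adjusted p = 0.00820) and the T3 plus siRNA group 2.10-fold below the T3 group (adjusted p = 0.00172), which matches the direction of the label. Its second probe differed by 0.05 with T3 (adjusted p = 0.848) and by -0.75 between the T3 plus siRNA and T3 groups (adjusted p = 0.0122). Against the euthyroid group, the T3 plus siRNA group differed by -0.30 by the brighter probe (adjusted p = 0.152) and by -0.70 by the second (adjusted p = 0.0114).

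With T3, 17 of the 40 members passed an adjusted p of 0.05, 5 higher and 12 lower, which is 42.5% of the members beside 18.4% of all 10408 genes. Of all genes 7.8% were higher and 10.6% lower. The median difference was -0.18 over the members and -0.05 over all genes. In the T3 plus siRNA group against T3, 13 members passed, 2 higher and 11 lower (32.5%), beside 19.5% of all genes, of which 11.7% were higher and 7.72% lower. The medians were -0.29 over the members and 0.01 over all genes. In the T3 plus siRNA group against the euthyroid group, 26 members passed, 3 higher and 23 lower (65%), beside 26.7% of all genes (13.4% higher and 13.3% lower). The medians were -0.44 and -0.02.

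The groups of every member that passed did not overlap in the comparison concerned. A change of at least 2-fold was reached by 6 of the 17, 3 of the 13 and 9 of the 26. The shares of all genes that passed without overlap or with such a change were not counted, so neither is read as particular to the members. The 3 comparisons are not independent, since the first and second share the T3 arrays and the third shares its arrays with both. Of the 40 members, 32 were detected on all 9 arrays, and of these 13, 9 and 24 passed (40.6%, 28.1% and 75%). The shares of all 10408 genes, dim ones included, were 18.4%, 19.5% and 26.7%. When only genes detected on all 9 arrays were fitted, 16 of 32 members and 2126 of 8411 genes passed with T3. For T3 plus siRNA against T3 these were 10 of 32 members and 2029 of 8411 genes. The other 8 members passed the detection filter on 3 to 8 arrays, and 3 of them (Cyp1b1, Cyp2c65 and Cyp4f40) on exactly 3. Of the 20 symbols that did not pass the filter, 19 were detected on none of the arrays, 6 Cyp2j genes among them, and Cyp2d12 on 1. Passing in no comparison were Cyp1b1, Cyp2c54, Cyp2c65, Cyp2d40, Cyp2s1, Cyp3a11, Cyp3a13 and Cyp4b1-ps2.

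**Figure D1:**
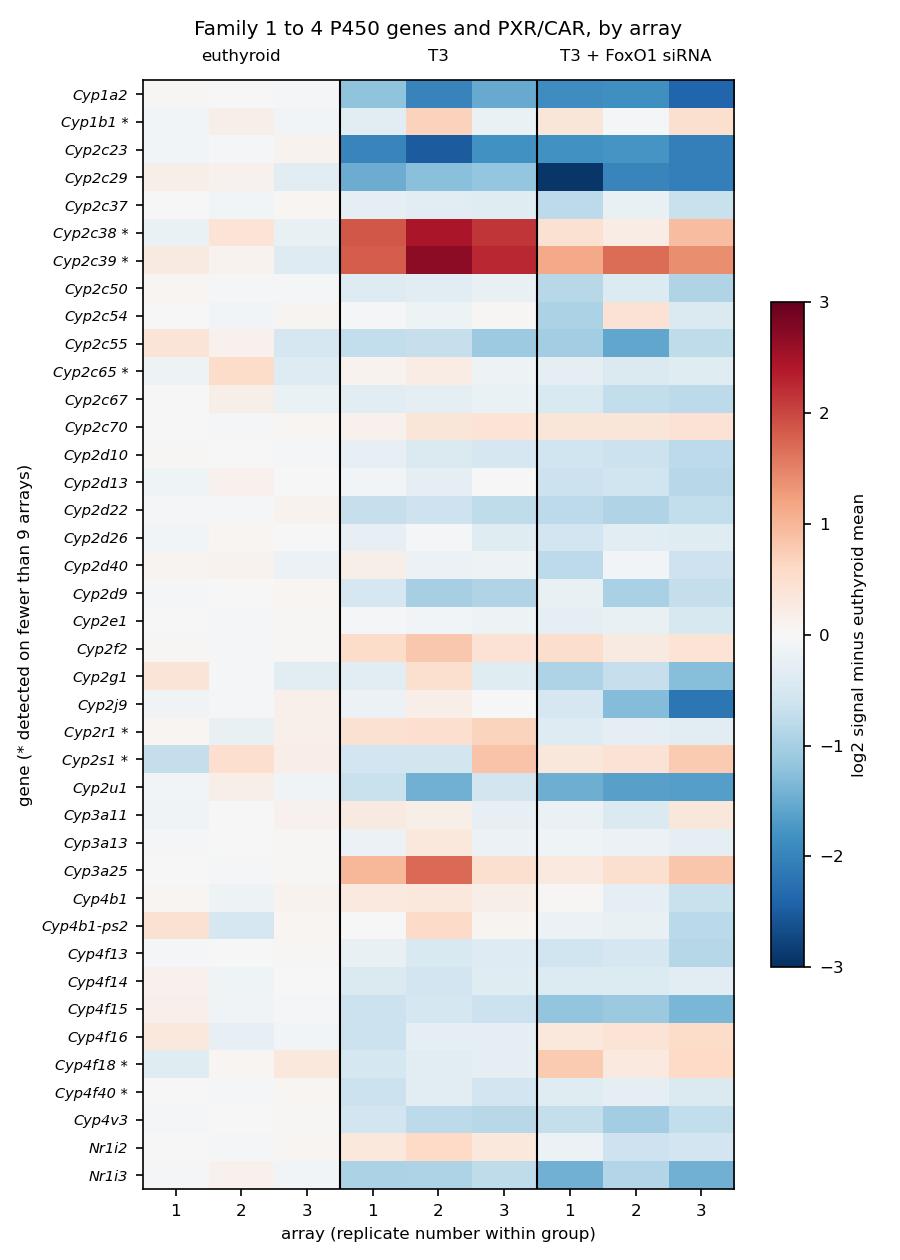
Heat map of the 40 genes (rows) on the 9 arrays (columns, 3 per group); colour is the log2 signal minus the mean of the euthyroid arrays, red higher and blue lower. Cyp1a2, Cyp2c23 and Cyp2c29 are blue on all 6 arrays of mice given T3, Cyp2c38 and Cyp2c39 are darkest red on the 3 T3 arrays, and asterisks mark the 8 genes detected on fewer than 9 arrays.

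Cyp1a2, which oxidises caffeine and arylamines and is a classic AhR target, fell with T3 and stayed low with the siRNA. It read 13.97, 13.92 and 13.90 on the euthyroid arrays, 12.73, 11.92 and 12.42 on the T3 arrays and 12.07, 12.08 and 11.55 on the T3 plus siRNA arrays. All 6 arrays of mice given T3 lay below all 3 euthyroid arrays, while the T3 and T3 plus siRNA arrays overlapped. The drop with T3 was 2.97-fold (log2 difference -1.57 ± 0.21, SE, adjusted p = 0.00284), and the difference between the T3 plus siRNA and T3 groups was -0.46 ± 0.21 (adjusted p = 0.152). Against the euthyroid group the T3 plus siRNA group was 4.08-fold lower (adjusted p = 0.000629). A second Cyp1a2 probe differed by -1.33 with T3 (adjusted p = 0.00402). Cyp1b1, detected on 3 arrays, differed by 0.06 with T3 and by 0.20 between the T3 plus siRNA and T3 groups (adjusted p = 0.886 and 0.606), and Cyp1a1 was detected on none of the 9 arrays.

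The Cyp2c subfamily, whose enzymes oxidise drugs and epoxidise arachidonic acid, held genes that changed in both directions with T3. Of its 11 measured genes, 2 rose and 2 fell with T3. In the T3 plus siRNA group 3 were lower than with T3 and 0 were higher, and against the euthyroid group 2 were higher and 6 lower. These shares are 36.4%, 27.3% and 72.7% of the subfamily, beside 18.4%, 19.5% and 26.7% of all genes, the second lying closest. All lie on chromosome 19, 10 of them between positions 39006940 and 40187286 and Cyp2c23 at chr19:44005022-44029256 (GRCm38.p6).

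Cyp2c38 and Cyp2c39 rose with T3, and both were lower in the T3 plus siRNA group than in the T3 group. Cyp2c39 is known as a retinoic acid hydroxylase of mouse liver, and both genes stood in a list of P450s that female mouse liver expresses more. Cyp2c38 (chr19:39389556-39463103, GRCm38.p6) read 5.01, 5.62 and 4.98 on the euthyroid arrays, 7.06, 7.64 and 7.35 on the T3 arrays and 5.67, 5.43 and 6.13 on the T3 plus siRNA arrays. The 3 T3 arrays stood above all others, and the T3 plus siRNA arrays overlapped the euthyroid range. It was detected on 1 euthyroid, 3 T3 and 2 T3 plus siRNA arrays. The rise with T3 was 4.44-fold (log2 difference 2.15 ± 0.24, adjusted p = 0.00139), but 1.06 on the log2 scale in the authors' normalized values, and with the siRNA the level was 3.04-fold lower than with T3 (-1.60 ± 0.24, adjusted p = 0.00268; -0.82 in the authors' values). Its difference between the T3 plus siRNA and euthyroid groups was 0.54 ± 0.24 (adjusted p = 0.118).

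Cyp2c39 (chr19:39347346-39569568, GRCm38.p6) read 5.77, 5.60 and 5.11 on the euthyroid arrays, 7.32, 8.17 and 7.76 on the T3 arrays and 6.63, 7.16 and 6.89 on the T3 plus siRNA arrays. The 3 groups did not overlap, and the siRNA arrays lay between the other two groups. It was detected on 2 euthyroid arrays and on all arrays of the other groups. The rise with T3 was 4.78-fold (2.26 ± 0.24, adjusted p = 0.00135), but 1.20 on the log2 scale in the authors' normalized values. With the siRNA the level was 1.81-fold lower than with T3 (-0.86 ± 0.24, adjusted p = 0.0391), a call lost under 9 of the 17 alternatives in which it was tested, and 2.64-fold above the euthyroid group (1.40 ± 0.24, adjusted p = 0.00430; 0.65 in the authors' values). The RefSeq span of Cyp2c39 encloses Cyp2c38, which lies on the opposite strand. Whether probes of these close paralogs cross-hybridise was not tested.

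Cyp2c29, a gene known to respond to CAR, moved the other way and was lowest with the siRNA. It read 10.96, 10.91 and 10.46 on the euthyroid arrays, 9.29, 9.53 and 9.61 on the T3 arrays and 7.86, 8.80 and 8.72 on the T3 plus siRNA arrays, so that the 3 groups formed 3 separate steps. The fall with T3 was 2.46-fold (-1.30 ± 0.25, adjusted p = 0.00936), and the T3 plus siRNA group lay a further 2.02-fold below T3 (-1.02 ± 0.25, adjusted p = 0.0210), a call lost under median scaling and without T3 replicate 2 or 3. Against the euthyroid group it was 4.97-fold lower (adjusted p = 0.000671).

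The start regions of these 3 neighbours are shown because close relatives moved in opposite directions, with that of Cyp3a11 beside them as a member that passed in no comparison. Other members that passed in no comparison also have windows, and Cyp3a11 is the only one of them with a FoxO core. Every member window with that core is thus among those shown, so the display does not stand for all member windows. Each is the RefSeq GRCm38.p6 window from 250 bases before to 50 bases after a start, 5′ to 3′ on the gene's strand. Cyp2c39 has 2 such windows, and both are shown: the first at the start of its RefSeq span and the second 163476 bases away within the span. Capitals mark the searched motifs on either strand, which are the FoxO core GTAAACA, the nuclear receptor half-site AGGTCA and the HNF4 site CAAAGTCCA.
Cyp2c29, chr19:39286835-39287134, plus strand: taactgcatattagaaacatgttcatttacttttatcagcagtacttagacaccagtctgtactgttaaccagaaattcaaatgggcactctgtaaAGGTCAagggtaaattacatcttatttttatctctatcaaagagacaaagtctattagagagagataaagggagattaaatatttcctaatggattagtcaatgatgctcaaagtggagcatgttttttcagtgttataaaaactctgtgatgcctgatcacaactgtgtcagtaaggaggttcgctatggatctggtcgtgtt
Cyp2c38, chr19:39463026-39463325, minus strand: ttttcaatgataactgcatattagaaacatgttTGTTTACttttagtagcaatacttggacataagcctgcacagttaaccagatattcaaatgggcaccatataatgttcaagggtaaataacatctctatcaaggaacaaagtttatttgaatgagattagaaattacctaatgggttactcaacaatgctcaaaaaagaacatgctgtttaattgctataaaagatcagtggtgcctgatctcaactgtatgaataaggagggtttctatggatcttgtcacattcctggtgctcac
Cyp2c39 first window, chr19:39347096-39347395, plus strand: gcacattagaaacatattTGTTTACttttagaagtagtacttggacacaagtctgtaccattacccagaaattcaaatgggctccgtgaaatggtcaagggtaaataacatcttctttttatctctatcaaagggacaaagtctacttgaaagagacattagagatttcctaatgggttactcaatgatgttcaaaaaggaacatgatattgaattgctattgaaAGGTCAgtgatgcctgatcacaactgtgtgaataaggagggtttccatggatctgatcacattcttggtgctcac
Cyp2c39 second window, chr19:39510572-39510871, plus strand: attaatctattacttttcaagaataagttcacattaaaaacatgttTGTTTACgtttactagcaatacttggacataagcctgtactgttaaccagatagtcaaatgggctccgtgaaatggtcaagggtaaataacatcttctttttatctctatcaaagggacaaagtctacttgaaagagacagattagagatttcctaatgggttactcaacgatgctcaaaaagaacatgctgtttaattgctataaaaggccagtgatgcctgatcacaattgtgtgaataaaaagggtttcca
Cyp3a11, chr5:145879805-145880104, minus strand: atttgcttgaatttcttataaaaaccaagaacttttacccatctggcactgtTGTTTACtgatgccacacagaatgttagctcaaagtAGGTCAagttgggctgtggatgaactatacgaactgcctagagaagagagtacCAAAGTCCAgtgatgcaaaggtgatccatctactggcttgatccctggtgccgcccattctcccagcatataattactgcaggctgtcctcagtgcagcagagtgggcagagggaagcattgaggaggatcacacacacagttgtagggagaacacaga

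Of the 40 members, 33 matched an entry and had 39 such windows. The FoxO core was in 4 of the 39 (10.3%), beside 3.65% of 32851 mouse windows of the same length. These 4 windows belong to Cyp2c38, Cyp2c39 (both of its windows) and Cyp3a11. Counted from the start, the core began at -217 in Cyp2c38 and at -232 and -204 in the windows of Cyp2c39, in each case as the reverse complement. The Cyp2c29 window held no FoxO core and a half-site at -154, and the first Cyp2c39 window a half-site at -25. Half-sites were in 8 of 39 windows (20.5%) and in 16.3% of all windows, and the HNF4 site in 4 (10.3%, those of Cyp2c65, Cyp2c67, Cyp2c70 and Cyp3a11) and in 0.475%. Some windows of a gene overlap, so these shares do not count separate sequences. The windows of Cyp3a25, at chr5:146009568-146009867 and chr5:146009569-146009868, hold the same half-sites. The Cyp2c38 window was identical to the first Cyp2c39 window at 78.1% of aligned positions and to the second at 72.6%. That of Cyp2c29 was identical to these at 75.7% and 69.0%, and to Cyp2c38 at 70.8%, and the 2 Cyp2c39 windows matched each other at 74.2%. These matches describe the letters in the windows and are not measured binding.

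Cyp2c23, an arachidonic acid epoxygenase, fell with T3 in a way that the siRNA group shared. It read 14.19, 14.25 and 14.39 on the euthyroid arrays, 12.30, 11.78 and 12.46 on the T3 arrays and 12.45, 12.51 and 12.24 on the T3 plus siRNA arrays. The euthyroid arrays stood far above the other 6, which overlapped. The fall with T3 was 4.29-fold (-2.10 ± 0.17, adjusted p = 0.000613), and the difference between the T3 plus siRNA and T3 groups was 0.22 ± 0.17 (adjusted p = 0.398). It was 3.68-fold below the euthyroid group with T3 plus siRNA (adjusted p = 0.000447).

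By their brightest probes, Cyp2c37, Cyp2c50, Cyp2c55 and Cyp2c67 passed only where the T3 plus siRNA group was set against the euthyroid group. Cyp2c50 read 14.30, 14.21 and 14.21 on the euthyroid, 13.85, 13.91 and 14.03 on the T3 and 13.41, 13.84 and 13.35 on the T3 plus siRNA arrays, and was 1.64-fold below euthyroid in the last group (adjusted p = 0.00604). Cyp2c67 read 13.74, 13.90 and 13.54, then 13.39, 13.44 and 13.53, then 13.27, 12.99 and 12.95 in the same order, and was 1.58-fold lower (adjusted p = 0.00657). By these probes the T3 arrays of both genes lay between the other groups, and neither step passed alone. The adjusted p was 0.135 and 0.164 with T3 and 0.0684 and 0.0638 for the T3 plus siRNA group against T3. A second Cyp2c50 probe, detected on all 9 arrays, differed by 0.23 with T3 (adjusted p = 0.345). It passed for T3 plus siRNA against T3 (-0.60, adjusted p = 0.0323) but not against euthyroid (-0.37, adjusted p = 0.114). A second Cyp2c67 probe, also detected on all 9 arrays, differed by -0.05 from T3 and -0.34 from euthyroid with the siRNA (adjusted p = 0.859 and 0.132). The Cyp2c50 call was lost when its probes were averaged.

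Cyp2c37 read 14.59, 14.48 and 14.63 on the euthyroid, 14.26, 14.24 and 14.20 on the T3 and 13.77, 14.33 and 13.90 on the T3 plus siRNA arrays. Its difference between the first and last group was 1.48-fold (adjusted p = 0.0184, lost under 4 alternatives). Cyp2c55 read 9.14, 8.88 and 8.24, then 8.03, 8.06 and 7.67, then 7.71, 7.20 and 7.99, and was 2.18-fold lower (adjusted p = 0.0134). Its fall with T3 had an adjusted p of 0.0528 although its euthyroid and T3 arrays did not overlap. Cyp2c70, the enzyme that makes muricholic acids in mice, was the other member of the subfamily to end above the euthyroid level. It read 14.91, 14.89 and 14.97, then 15.06, 15.28 and 15.34, then 15.29, 15.29 and 15.35, with a 1.30-fold difference for T3 plus siRNA against euthyroid (adjusted p = 0.0227). That call was lost under 5 alternatives, median scaling among them. Cyp2c54 and Cyp2c65 passed in no comparison. Cyp2c54 had a wide spread with the siRNA (7.78, 9.18 and 8.31), and Cyp2c65 was detected on 3 arrays.

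**Figure D2:**
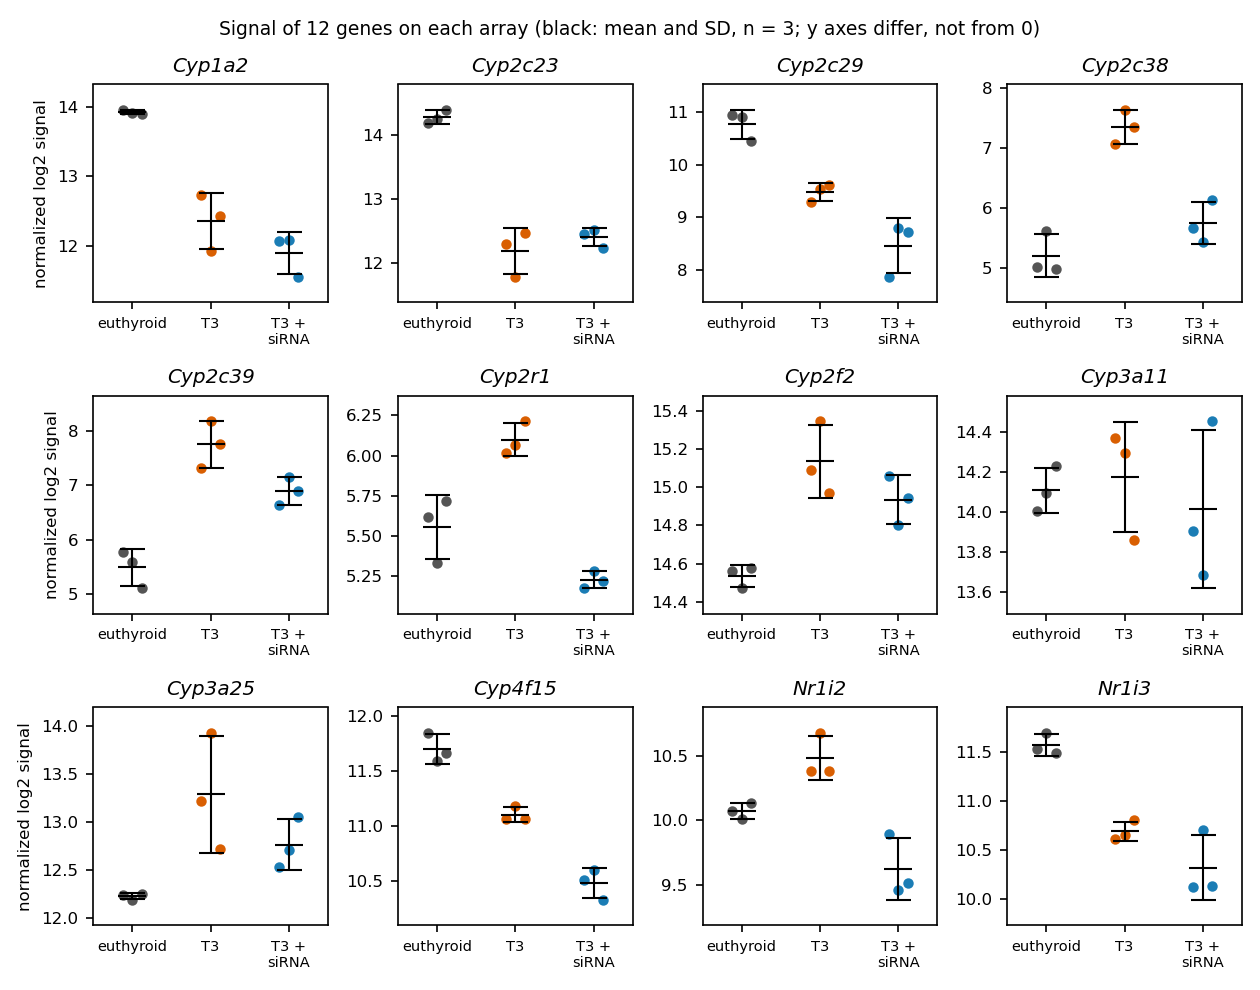
Normalized log2 signal of 12 genes on each of the 9 arrays by group; each dot is an array, and black bars are the mean and SD (n = 3). The y axes differ and do not start at 0. Cyp2c38, Cyp2c39 and Cyp2r1 are highest on the T3 arrays, Cyp2c29 and Cyp4f15 step down from group to group, and the 3 groups of Cyp3a11 overlap.

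Of 6 measured Cyp2d genes, a subfamily that oxidises many drugs with a basic nitrogen, 0 rose and 3 fell with T3. With the siRNA 1 was lower than with T3, and 5 were below euthyroid in the T3 plus siRNA group. The shares were 50%, 16.7% and 83.3%, beside 18.4%, 19.5% and 26.7% of all genes, the second near that of all genes. Cyp2d22 read 13.31, 13.29 and 13.45 on the euthyroid, 12.66, 12.72 and 12.59 on the T3 and 12.57, 12.45 and 12.60 on the T3 plus siRNA arrays. Its fall with T3 was 1.61-fold (-0.69 ± 0.10, adjusted p = 0.00308), and a second probe differed by -0.75 (adjusted p = 0.0178). The last 2 groups of Cyp2d22 overlapped. Cyp2d10 read 14.58, 14.56 and 14.50, then 14.31, 14.10 and 14.05, then 13.95, 13.89 and 13.76. The groups did not overlap, and its falls against the euthyroid group were 1.31-fold with T3 (adjusted p = 0.0310, lost under 7 alternatives) and 1.60-fold with T3 plus siRNA (adjusted p = 0.00255).

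Cyp2d9, a testosterone 16-alpha-hydroxylase that male mouse liver expresses more, was the single gene in the list of male-biased P450s. It read 14.99, 15.02 and 15.09 on the euthyroid, 14.53, 14.04 and 14.14 on the T3 and 14.80, 14.07 and 14.31 on the T3 plus siRNA arrays. All arrays of mice given T3 lay below the euthyroid arrays, and the 2 other groups overlapped. Its fall with T3 was 1.74-fold (-0.80 ± 0.19, adjusted p = 0.0214), a call lost without any 1 euthyroid array and without T3 replicate 2 or 3. Of the 8 genes in the female-biased list, 2 were measured, Cyp2c38 and Cyp2c39, and Cyp3a16, Cyp3a41b, Cyp3a44 and Cyp2c40 were detected on none of the arrays.

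Cyp2d13, whose transcript record is noncoding, differed by -0.13 with T3 (adjusted p = 0.495) and was lower with the siRNA. It read 9.25, 9.51 and 9.39 on the euthyroid, 9.29, 9.09 and 9.38 on the T3 and 8.74, 8.77 and 8.54 on the T3 plus siRNA arrays. The siRNA arrays lay below all others, 1.48-fold below T3 (-0.57 ± 0.12, adjusted p = 0.0126). Cyp2d26 was 1.34-fold lower in the T3 plus siRNA than in the euthyroid group (adjusted p = 0.0248) by its brightest probe, while its 2 dimmer probes differed by 0.21 and 0.16 (adjusted p = 0.611 and 0.684). Cyp2d40 passed in no comparison.

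Among the smaller Cyp2 subfamilies, Cyp2r1, a vitamin D 25-hydroxylase, rose with T3 and was below the detection limit with the siRNA. It read 5.61, 5.33 and 5.71 on the euthyroid, 6.01, 6.07 and 6.21 on the T3 and 5.17, 5.28 and 5.22 on the T3 plus siRNA arrays, with 2, 3 and 0 of 3 arrays detected. The T3 arrays stood above the rest and the siRNA arrays below. The rise with T3 was 1.46-fold (0.55 ± 0.12, adjusted p = 0.0154, lost without T3 replicate 3, under median scaling and in the authors' normalized values). Since the siRNA arrays were not detected, the drop from T3 is given as at least 1.63-fold (adjusted p = 0.00191), with measured means of 6.10 and 5.22; the dim group was set, per array, at the higher of its own signal and the lowest detected signal.

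Cyp2u1, which hydroxylates long-chain fatty acids, read 7.12, 7.38 and 7.10 on the euthyroid, 6.54, 5.77 and 6.64 on the T3 and 5.75, 5.56 and 5.56 on the T3 plus siRNA arrays. The euthyroid arrays stood apart and the siRNA arrays were lowest, just under the lowest T3 array. Its fall with T3 was 1.85-fold (-0.89 ± 0.21, adjusted p = 0.0211), and the further step of -0.69 ± 0.21 with the siRNA (adjusted p = 0.0488) was lost under 14 of 18 alternatives. A second Cyp2u1 probe, detected on 4 arrays, differed by 0.02 with T3 (adjusted p = 0.926).

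Cyp2f2, which activates naphthalene and is the periportal P450 of the lists, rose with T3. It read 14.56, 14.47 and 14.58 on the euthyroid, 15.09, 15.35 and 14.97 on the T3 and 15.06, 14.80 and 14.95 on the T3 plus siRNA arrays. The euthyroid arrays lay below the other 6. The rise with T3 was 1.52-fold (0.60 ± 0.12, adjusted p = 0.0117, lost under median scaling), and the T3 plus siRNA group differed from T3 by -0.20 (adjusted p = 0.270). Of the 7 pericentral P450s, those expressed around the central vein, 2 fell with T3 (Cyp1a2 and Cyp2c29), 1 was lower with the siRNA than with T3 (Cyp2c29) and 5 were below euthyroid in the T3 plus siRNA group, while 0 were higher in any comparison. That is 28.6%, 14.3% and 71.4% of the 7, beside 18.4%, 19.5% and 26.7% of all genes. Their medians were -0.31, -0.27 and -0.56. Cyp2e1, the pericentral enzyme that oxidises ethanol and acetaminophen, differed by -0.09 with T3 (adjusted p = 0.566). It was 1.26-fold below the euthyroid group with T3 plus siRNA (adjusted p = 0.0371), a call lost under 11 alternatives.

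Cyp2j9 had the same mean of 9.11 in the euthyroid and T3 groups and fell to 7.79 ± 0.83 with the siRNA. Its siRNA arrays read 8.60, 7.82 and 6.95 and lay below the T3 arrays, whose lowest value was 8.92. The step from T3 was 2.49-fold (-1.32 ± 0.34, adjusted p = 0.0258) and was lost without siRNA replicate 2 or T3 replicate 2 or 3, and with only the 2 groups in the fit. Cyp2g1, a steroid-oxidising enzyme known from olfactory mucosa, was 1.84-fold below its T3 level with the siRNA (adjusted p = 0.0482, lost under 12 alternatives). Cyp2s1 passed in no comparison.

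Of the 3 measured Cyp3a genes, 1 rose with T3 (33.3%, beside 18.4% of all genes). In the other comparisons 0 passed, beside 19.5% and 26.7% of all genes. Cyp3a11, the main Cyp3a enzyme of mouse liver and a standard PXR target, had a mean of 14.11 ± 0.11 in the euthyroid, 14.17 ± 0.27 in the T3 and 14.01 ± 0.40 in the T3 plus siRNA group (SD, n = 3 each). The 3 groups overlapped throughout, and its differences were 0.07 ± 0.21 with T3 and -0.16 ± 0.21 for the T3 plus siRNA group against T3 (adjusted p = 0.845 and 0.619). Cyp3a25 rose 2.09-fold with T3 (1.06 ± 0.27, adjusted p = 0.0249), from 12.23 ± 0.03 to 13.29 ± 0.61, with T3 arrays at 13.22, 13.93 and 12.72. The call was lost without any 1 euthyroid array and without T3 replicate 1. Cyp3a13 differed by -0.01 with T3 by its brightest probe (adjusted p = 0.976), by 0.26 by its second (adjusted p = 0.154) and by 0.99 by its dimmest, which passed (adjusted p = 0.00904).

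**Figure D3:**
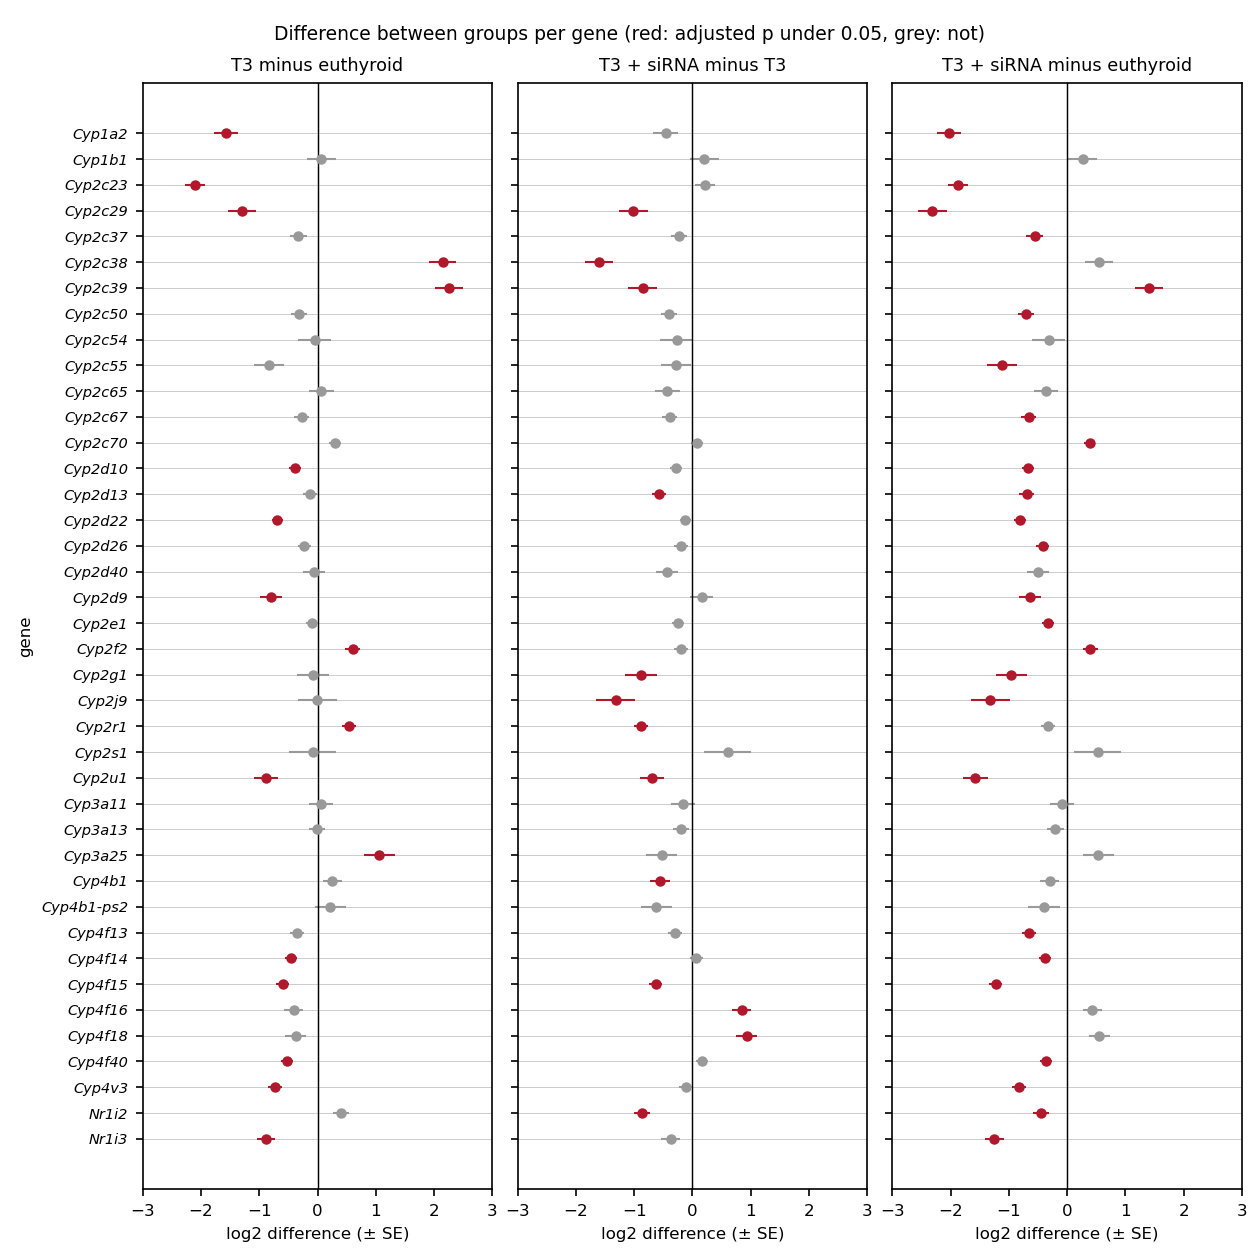
Log2 difference of each of the 40 genes in the 3 comparisons (x axis, points with SE bars); red points passed an adjusted p of 0.05 and grey points did not. With T3 5 red points lie right of 0 and 12 left, for T3 plus siRNA against T3 2 right and 11 left, and against the euthyroid group 3 right and 23 left.

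In family 4, Cyp4f genes hydroxylate leukotrienes, vitamin E and fatty acids. Of 6 measured members, 0 rose and 3 fell with T3, and 2 were higher and 1 lower with the siRNA than with T3. In the T3 plus siRNA group 4 were below euthyroid. The shares were 50%, 50% and 66.7%, beside 18.4%, 19.5% and 26.7% of all genes. The first and last of these shares count Cyp4f40, which passed the detection filter through its euthyroid arrays alone and so had to differ. Cyp4f15 stepped down in each group, with 11.85, 11.59 and 11.67 on the euthyroid, 11.06, 11.19 and 11.06 on the T3 and 10.51, 10.60 and 10.33 on the T3 plus siRNA arrays. The groups did not overlap. The steps were 1.52-fold with T3 (-0.60 ± 0.11, adjusted p = 0.00891) and 1.54-fold from T3 to T3 plus siRNA (-0.63 ± 0.11, adjusted p = 0.00635, lost under median scaling), and 2.34-fold in all (adjusted p = 0.000447).

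Cyp4f14, an omega-hydroxylase of tocopherol and leukotrienes in mice, read 13.67, 13.41 and 13.54, then 13.11, 12.97 and 13.19, then 13.13, 13.12 and 13.21 on the euthyroid, T3 and T3 plus siRNA arrays. It fell 1.37-fold with T3 (adjusted p = 0.0195, lost under 4 alternatives), and the last 2 groups overlapped. Cyp4f13 read 12.13, 12.17 and 12.20, then 11.96, 11.71 and 11.77, then 11.56, 11.67 and 11.31 in that order. Its groups did not overlap, and the 1.57-fold difference between the first and last group passed (adjusted p = 0.00487) while the single steps did not (adjusted p = 0.0652 and 0.105).

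Cyp4f16 and Cyp4f18 were the members that rose from T3 to T3 plus siRNA. Cyp4f16 read 7.69, 7.13 and 7.28 on the euthyroid, 6.71, 7.09 and 7.07 on the T3 and 7.69, 7.79 and 7.92 on the T3 plus siRNA arrays, and was 1.79-fold higher with the siRNA than with T3 (0.84 ± 0.17, adjusted p = 0.00923). Its second probe differed by 0.28 (adjusted p = 0.255). Cyp4f18, which inactivates leukotriene B4 in mouse neutrophils, read 5.71, 6.11 and 6.37, then 5.54, 5.75 and 5.77, then 6.84, 6.35 and 6.66, and was 1.91-fold higher (0.93 ± 0.18, adjusted p = 0.00961). The siRNA arrays of Cyp4f16 overlapped the euthyroid arrays, as did those of Cyp4f18 at their lowest. The 2 members had adjusted p-values of 0.0819 and 0.0527 against the euthyroid group.

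Cyp4f40 was detected on the 3 euthyroid arrays only and passed the filter through them. It read 5.58, 5.54 and 5.64 there, 4.94, 5.24 and 5.01 on the T3 and 5.22, 5.29 and 5.16 on the T3 plus siRNA arrays. Against the euthyroid mean of 5.59, its signal was at least 1.04-fold lower with T3 (mean 5.06) and at least 1.14-fold lower with T3 plus siRNA (mean 5.23). A gene that passes the filter through its high group alone had to differ, so this is a description. Cyp4f40 is counted among the 12 members lower with T3, which are 11 without it. It is also counted among the 23 below euthyroid with T3 plus siRNA, which are 22 without it. The shares of 42.5% and 65% of all members in these comparisons include it, as do those of 50% and 66.7% of the Cyp4f genes. Cyp4v3, the mouse counterpart of the human fatty acid hydroxylase CYP4V2, read 13.52, 13.52 and 13.59 on the euthyroid, 12.98, 12.76 and 12.71 on the T3 and 12.82, 12.50 and 12.80 on the T3 plus siRNA arrays. It fell 1.66-fold with T3 (-0.73 ± 0.12, adjusted p = 0.00565) and differed by -0.11 between the last 2 groups (adjusted p = 0.566). Cyp4b1, which activates the lung toxin 4-ipomeanol, lay 1.47-fold below the T3 group with the siRNA (adjusted p = 0.0467, lost under 12 alternatives), and its pseudogene Cyp4b1-ps2 passed in no comparison.

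Of the 2 receptor genes, 1 fell with T3, and 1 was lower with the siRNA than with T3, beside 18.4% and 19.5% of all genes called. Nr1i3 (CAR) read 11.53, 11.69 and 11.49 on the euthyroid, 10.61, 10.65 and 10.80 on the T3 and 10.12, 10.70 and 10.13 on the T3 plus siRNA arrays. All arrays of mice given T3 lay below the euthyroid arrays, and siRNA replicate 2 fell within the T3 range. The fall with T3 was 1.84-fold (-0.88 ± 0.16, adjusted p = 0.00762), and the T3 plus siRNA group was 2.38-fold below euthyroid (adjusted p = 0.00124) and -0.37 ± 0.16 from T3 (adjusted p = 0.131). The 2 other Nr1i3 probes detected on all arrays also fell with T3, by 0.95 and 0.61 on the log2 scale (adjusted p = 0.00515 and 0.0324). The last 2 probes were each detected on 3 arrays, on 0 of the T3 arrays in both cases, and are not read further.

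Nr1i2 (PXR) read 10.07, 10.01 and 10.13 on the euthyroid, 10.38, 10.68 and 10.38 on the T3 and 9.89, 9.45 and 9.51 on the T3 plus siRNA arrays. The groups did not overlap, with T3 highest and the siRNA arrays lowest. The difference with T3 was 0.41 ± 0.14 (adjusted p = 0.0707). From T3 to T3 plus siRNA Nr1i2 fell 1.82-fold (-0.86 ± 0.14, adjusted p = 0.00415), and against the euthyroid group it was 1.37-fold lower (adjusted p = 0.0410, lost under 10 alternatives).

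**Figure D4:**
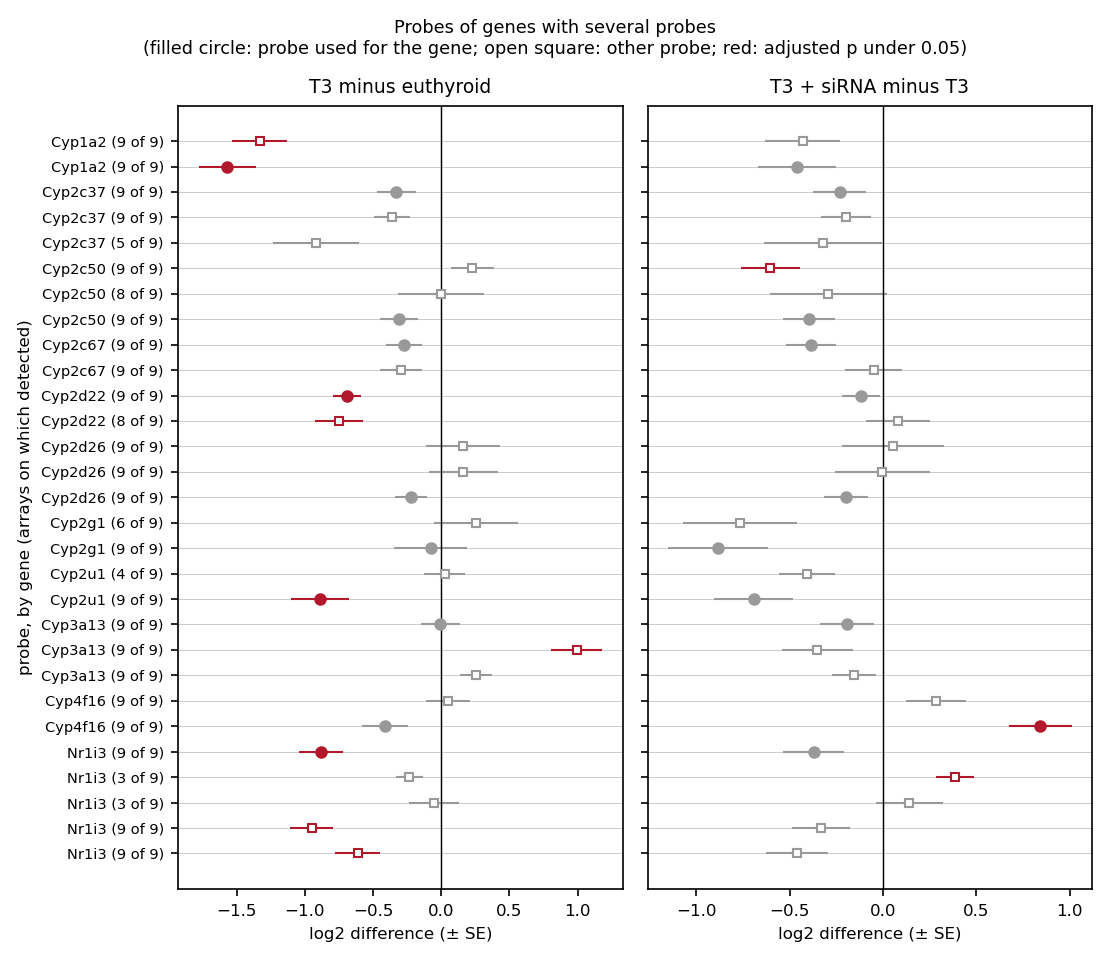
Log2 difference (x axis, with SE) of every detected probe of the 11 genes with several probes, for T3 minus euthyroid (left) and T3 plus siRNA minus T3 (right). Filled circles are the probe used for the gene, open squares the others, red an adjusted p under 0.05 in the fit over probes; the dimmest Cyp3a13 probe stands at 0.99 with T3 while the probe used stands at -0.01.

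Of 14 other PXR and CAR target genes measured, 4 rose and 2 fell with T3, 1 was higher and 4 lower with the siRNA than with T3, and 1 was higher and 2 lower in the T3 plus siRNA than in the euthyroid group (42.9%, 35.7% and 21.4%, beside 18.4%, 19.5% and 26.7% of all genes). Slco1a4, an uptake transporter of bile acids and organic anions, rose by 1.03 with T3 (adjusted p = 0.0110) and was -1.48 from T3 with the siRNA (adjusted p = 0.00198). Papss2, which makes the sulfate donor, rose by 1.09 (adjusted p = 0.00278) and was -0.57 from T3 with the siRNA (adjusted p = 0.0237). Ces2a, a carboxylesterase, was -1.43 from T3 with the siRNA (adjusted p = 0.00470). Abcc3, an efflux transporter of conjugates, ran the other way, at -1.90 with T3 (adjusted p = 0.000613) and 0.82 above T3 with the siRNA (adjusted p = 0.00517). Of 5 AhR targets measured, 1 fell with T3 (Cyp1a2) and 1 fell from T3 to T3 plus siRNA (Ugt1a6a, -0.60, adjusted p = 0.0418). In the T3 plus siRNA group 1, again Cyp1a2, was below euthyroid. Each is 20% of the list, near the 18.4% and 19.5% of all genes in the first 2 comparisons and below the 26.7% in the last.

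Among 18 measured regulators of P450 genes, 3 rose with T3 and 0 fell, 6 were lower with the siRNA than with T3, and 2 were lower than in the euthyroid group. That is 16.7%, 33.3% and 11.1% of the list, near, above and below the shares of all genes. Cebpb, a transcription factor of the acute phase and of metabolism, rose by 0.85 with T3 (adjusted p = 0.00243) and was -0.72 from T3 with the siRNA (adjusted p = 0.00287). Cux2, a repressor that female mouse liver expresses more, rose by 1.98 (adjusted p = 0.00963) and was -1.33 from T3 with the siRNA (adjusted p = 0.0380). Hnf4a, the liver nuclear receptor, rose by 0.49 (adjusted p = 0.0196) and was -0.37 from T3 (adjusted p = 0.0498). Rxra, the partner of PXR and CAR, was -0.33 from T3 with the siRNA (adjusted p = 0.0345). Of 14 genes of electron transfer and heme supply, 1 rose with T3 (Hmox1, which degrades heme, 0.72, adjusted p = 0.0374) and 3 fell, among them Alad, an enzyme of heme synthesis (-0.67, adjusted p = 0.00321). In the T3 plus siRNA group 3 were lower than with T3, including the heme chaperone Pgrmc2 (-0.50, adjusted p = 0.00729), and against the euthyroid group 1 was higher and 7 lower. The shares called were 28.6%, 21.4% and 57.1%, the second of them near the 19.5% of all genes.

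Markers of some other cells and of inflammation also differed between the T3 plus siRNA and T3 groups, while markers of other cell types did not. Of 8 measured macrophage markers, 1 rose with T3 and 5 were higher with the siRNA than with T3, and their summed normalized linear signal ran from 8231 to 8623 on the euthyroid, 9543 to 10662 on the T3 and 13586 to 16581 on the T3 plus siRNA arrays. Cd68 and Cd5l had no named probe that passed the filter. Such a sum over probes of different genes weighs the brightest probes most, so it need not follow the number of markers called. Of 11 stellate cell and fibroblast markers, 4 fell with T3 and 7 were higher and 1 lower with the siRNA, with sums of 11998 to 13969, 10877 to 11957 and 13204 to 15491. Of 14 acute phase genes, 1 fell with T3 and 7 rose and 1 fell with the siRNA, Lcn2 by 4.95 and Saa1 by 3.05 (adjusted p = 0.000893 and 0.00109). The 8 measured hepatocyte markers summed to 168629 to 173705, 180435 to 182053 and 161925 to 173951, with 3 lower and 0 higher with the siRNA. Of 3 measured neutrophil and monocyte markers 0 passed in any comparison. With T3, 12.5% of macrophage, 36.4% of stellate cell, 7.14% of acute phase and 37.5% of hepatocyte genes passed, beside 18.4% of all genes. For T3 plus siRNA against T3 the shares were 62.5%, 72.7%, 57.1% and 37.5%, beside 19.5%. In that comparison 0 of the measured sinusoidal endothelial, lymphocyte and erythroid markers passed, and 2 of 2 cholangiocyte markers were higher. The part of these shifts in the members' values was not tested, and in bulk liver fewer cells of a type and less RNA per cell cannot be told apart.

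The calls of T3 plus siRNA against T3 depended most on the scaling. With each array scaled to its median in place of quantiles, the median of all genes moved from 0.01 to 0.17, all genes split into 1541 higher and 197 lower, in place of 1221 and 804, and 6 members passed, 2 higher and 4 lower. The 4 were Cyp2c38, Cyp2j9, Cyp2r1 and Nr1i2. In the T3 plus siRNA against the euthyroid group the median of all genes moved from -0.02 to 0.09, and the split from 1397 higher and 1382 lower to 1309 and 469. Some sizes moved by over 1.5 times in the authors' normalized values, where the log2 difference of T3 plus siRNA against T3 was -0.36 for Cyp2r1, 0.54 for Cyp4f16 and 0.42 for Cyp4f18, and that of Cyp2u1 against the euthyroid group -0.78. When the probes of Nr1i3 were averaged its difference with T3 was -0.55. Of 18 alternatives, Cyp2c38, Cyp2c39, Cyp2r1 and Cyp4f18 could be tested under 17, since they were not detected on all 9 arrays. The calls that held under every alternative tested were Cyp1a2, Cyp2c23, Cyp2c29, Cyp2c38, Cyp2c39, Cyp2d22, Cyp4f15, Cyp4v3 and Nr1i3 with T3, and Cyp2c38, Cyp2r1, Cyp4f16, Cyp4f18 and Nr1i2 for T3 plus siRNA against T3. Against the euthyroid group 13 of the 26 calls held in the same way, those of Cyp1a2, Cyp2c23, Cyp2c29, Cyp2c39, Cyp2c67, Cyp2d10, Cyp2d13, Cyp2d22, Cyp2u1, Cyp4f13, Cyp4f15, Cyp4v3 and Nr1i3.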

How the data were processed

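In all, 9 samples of mouse liver RNA were hybridised to Illumina bead arrays, 3 per group, with groups and replicate numbers from the sample titles. The authors deposited the intensity of each probe without normalization. A p-value for its detection stands beside every intensity, per the file headers. Their processing notes name Partek 6.6 without a step, and the authors' own normalized values, deposited on a linear intensity scale, served as an alternative. In R 4.3.3, limma 3.58.1 (with statmod 1.5.0) ran neqc, which infers negative controls out of those p-values to correct the background, adds an offset (16), applies quantile normalization and takes log2. Probes detected (p-value under 0.05) on at least 3 of 9 arrays were kept, 18581 of 45281, and 15754 of these had 1 symbol. The brightest probe stood for each of 10408 genes.

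One fit of the 3 group means used all 9 arrays (lmFit, eBayes). Tests were two-sided, and p-values were adjusted by Benjamini-Hochberg over the 10408 genes, with a threshold of 0.05. Further probes of a gene come from the same fit over 15754 probes. The members and gene lists were chosen with earlier results of these data known. All members may be named. The 24 members with the lowest adjusted p have every array value printed; those of Cyp2c70 and Cyp2d9 were added as relatives, and single values of Cyp2c54, Cyp2j9 and Cyp3a25 after they were seen. From each list at most 6 called genes are named, those with the lowest adjusted p. The fit was tested on simulated data. Same-numbered arrays of different groups deviated with correlations of -0.06 to 0.03, so the replicate numbers were not taken to pair samples. Alternatives changed the background, scaling, detection filter, probe rule, array weights, groups fitted and replicate block, and left out each array in turn. Gene spans and start windows are from RefSeq, GRCm38.p6.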

Additional observations from a re-analysis of the deposited data

How the results depend on the processing

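Of 56 calls of members, 27 were kept under every alternative in which the gene was tested (18, or 17 for genes not detected on all 9 arrays), and of 64 differences not called 20 passed under at least 1. Median scaling left 3 members higher and 916 genes called with T3, 6 members called (4 lower) for T3 plus siRNA against T3 and 1778 genes against the euthyroid group. Requiring detection on all 9 arrays, which tests 32 members, left 3 higher with T3 and 1 higher for T3 plus siRNA against T3, where no filter gave 7 lower, and fitting only the 2 groups compared gave 8 called, 6 lower. When probes of a gene were averaged, Cyp3a13 turned from -0.01 to 0.41 with T3 (adjusted p = 0.0474). Leaving out 1 array gave 12 to 19 members with T3 (4 to 6 higher, 8 to 14 lower), 8 to 14 for T3 plus siRNA against T3 (2 higher throughout, 6 to 12 lower) and 15 to 27 against the euthyroid group (1 to 4 higher, 13 to 23 lower). Beyond 1.5 times lay, for T3 plus siRNA against T3, 8 members (6 lower) without T3 replicate 3, and 7 lower without T3 replicate 2, euthyroid replicate 2 or siRNA replicate 3. Against the euthyroid group they were 15 (13 lower) without euthyroid replicate 1, 15 lower without euthyroid replicate 3, 17 called (1 higher) without siRNA replicate 3 and 1 higher without euthyroid replicate 2. All genes called ranged from 878 (without euthyroid replicate 1) to 2015 with T3, 1182 (without siRNA replicate 3) to 1753 for T3 plus siRNA against T3 and 1686 (without euthyroid replicate 1) to 2934 against the euthyroid group. The causes were not tested. With the replicate number as a block, which does not pair the samples, 17, 11 and 22 members and 1522, 1659 and 2364 genes passed. Dim members (Cyp4f40, Cyp2r1, Cyp1b1, Cyp2c65) lie near the detection limit, where small folds are bounds. Cyp2c38 and Cyp2c39 were as dim in the euthyroid group (means 5.20 and 5.49, detected on 1 and 2 of 3 arrays), so their rises with T3 start near that limit. Cyp2s1 and Cyp4f18 were also dim in the T3 group (means 5.38 and 5.68).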

Other observations

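The members that passed did not lie equally far from the euthyroid mean on the arrays of a group. Of the 17 members that passed with T3, T3 replicate 2 lay farthest from the euthyroid mean in 9, replicate 3 in 5 and replicate 1 in 3. Of the 26 that passed for T3 plus siRNA against euthyroid, siRNA replicate 3 lay farthest in 14 and siRNA replicate 2 lay nearest in 14. Over all 40 members the median difference from the euthyroid mean was -0.27, -0.28 and -0.23 on T3 replicates 1, 2 and 3. It stood at -0.65 on siRNA replicate 3, and at -0.43 and -0.41 on replicates 1 and 2. Cyp2c54 had a value of 9.18 on siRNA replicate 2, above all euthyroid arrays, and 7.78 on replicate 1. Without siRNA replicate 2, Cyp2c37, Cyp2c50, Cyp2c54, Cyp2d40 and Nr1i3 passed for T3 plus siRNA against T3, while Cyp2g1, Cyp2j9, Cyp2u1 and Cyp4b1 no longer did, so that 14 members passed in place of 13.

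Among markers of other liver cells, 8 of 8 sinusoidal endothelial markers were measured, of which 1 fell with T3, 0 passed for T3 plus siRNA against T3 and 1 was below euthyroid in the T3 plus siRNA group. Of 2 cholangiocyte markers 1 fell with T3 and 2 rose from T3 to T3 plus siRNA. Of 3 lymphocyte markers 1 rose with T3, and of 2 erythroid markers 1 fell with T3. These lists are short, and the shares of all genes called were 18.4%, 19.5% and 26.7% in the 3 comparisons.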
